A study of Mus musculus with 33 samples.

Results

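The kidney response to tunicamycin (TM) in F1 mice was compared with the mid-parent response, the mean of the responses of the parental strains, for 22767 genes. These are the genes present in the kidney tables of F1, B6 and CAST mice whose normalized count averaged 5 or more over the 18 kidney samples, out of 45586 genes found in any of the 3 tables. A response is the TM minus Control difference of log2(normalized count + 1) within a genotype, so that a factor common to a whole table cancels.

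Total RNA was sequenced from liver and kidney in 33 samples, of which 18 are kidney. The F1 mice were born to C57BL/6J (B6) females and CAST/EiJ (CAST) males, and the parents are inbred B6 and CAST mice. All mice were male and 15 to 23 weeks old. In each of F1, B6 and CAST, 3 mice were injected intraperitoneally with 1 mg/kg TM and 3 with the vehicle DMSO (Control). The sample labels give 24 h between injection and collection, and the study's methods give a shorter time. Each sample is whole kidney, so fewer cells of a type and less RNA per cell cannot be told apart. F1 reads were aligned by another program and to another genome than parental reads, so genotype and alignment cannot be told apart.

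TM inhibits DPAGT1, the enzyme that begins N-linked glycan synthesis, and unfolded glycoproteins collect in the endoplasmic reticulum (ER). The unfolded protein response answers this through the sensors IRE1, PERK and ATF6: IRE1 splices the mRNA of the transcription factor Xbp1, PERK slows translation and favours the factors ATF4 and CHOP (Ddit3), and ATF6 raises ER chaperones such as the Hsp70 protein BiP (Hspa5). In the kidney, proximal tubule cells, which take up and metabolise much of what the glomerulus filters, are known to be sensitive to TM. An F1 response at the mid-parent is what purely additive differences between strains would give, and a departure from it is the usual sign of dominance.

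Libraries held from 3355262 to 15518935 reads, with a median of 13104123.5, and F1 Control 1 was the shallowest. This library also had the most reads on olfactory and vomeronasal receptor genes, 1322 counts per 1e6 reads (CPM) against 53.2 to 266 CPM in the other 17 libraries, and 26.1% of its reads were mitochondrially encoded, against 9.22% to 21.8%. Kidney markers were present throughout: normalized counts ran from 5682 to 46274 for the phosphate transporter Slc34a1, from 5063 to 31146 for uromodulin (Umod), from 195 to 1562 for the water channel Aqp2 and from 78.1 to 265 for the podocyte protein Nphs1. Of the liver genes, Cps1 stayed between 0 and 51.4 and Alb between 17.2 and 373. Other liver markers were higher, since the list of 14 summed to 12260 to 15130 in B6 Control kidneys. The sums were 4083 to 5072 in F1 Control and 1886 to 4290 in CAST Control kidneys.

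The TM response of F1 kidneys was large and close in direction to that of the parents. By limma, 2724 genes (12% of those tested) rose and 1369 (6.01%) fell in F1 kidneys by at least 1.5-fold with an adjusted p below 0.05, and in the mid-parent 2273 genes (9.98%) rose and 2021 (8.88%) fell. Of the genes that rose, 1690 did so in both, which is 62.0% of those in F1 and 74.4% of those in the mid-parent. Of those that fell, 812 did so in both, 59.3% of those in F1 and 40.2% of those in the mid-parent. The mid-parent draws on more libraries than F1, with a median standard error of 0.20 against 0.29, so these calls differ in power. Among genes called in F1 kidneys, 2678 of 2724 higher ones and 1308 of 1369 lower ones had the same sign in the mid-parent. Across 15305 protein-coding genes the F1 response lay on the mid-parent response with a slope of 0.898 and a Pearson correlation of 0.779. These describe genes, which are not independent replicates.

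The leading genes of the unfolded protein response rose in F1 kidneys as they did in the mid-parent. Hspa5 had normalized counts of 97480, 79580 and 74340 in F1 TM kidneys, against 1529, 2040 and 2703 in F1 Control kidneys. Its response was 5.35 on the log2 scale in F1, against 4.85 in the mid-parent, with a difference of 0.50 (95% interval -0.36 to 1.36, limma adjusted p = 0.74). Ddit3, the pro-apoptotic factor CHOP, had 10840, 8415 and 9196 in F1 TM kidneys, against 72.8, 89.4 and 218 in F1 Control kidneys. Its F1 response of 6.38 differed from the mid-parent 6.69 by -0.32 (interval -1.01 to 0.38, adjusted p = 0.798). For both genes the TM and Control values were far apart in every genotype, and the F1 difference from the mid-parent did not pass the test. Herpud1, which works in ER-associated degradation, responded by 3.84 in F1 and 3.51 in the mid-parent, and Xbp1 mRNA by 1.96 in F1 and 1.37 in the mid-parent. Neither difference passed (limma adjusted p = 0.758 for Herpud1 and 0.614 for Xbp1). The Xbp1 difference of 0.595 nevertheless had a 95% interval above 0, from 0.18 to 1.01, and F1 responded more than either parent.

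**Figure D1:**
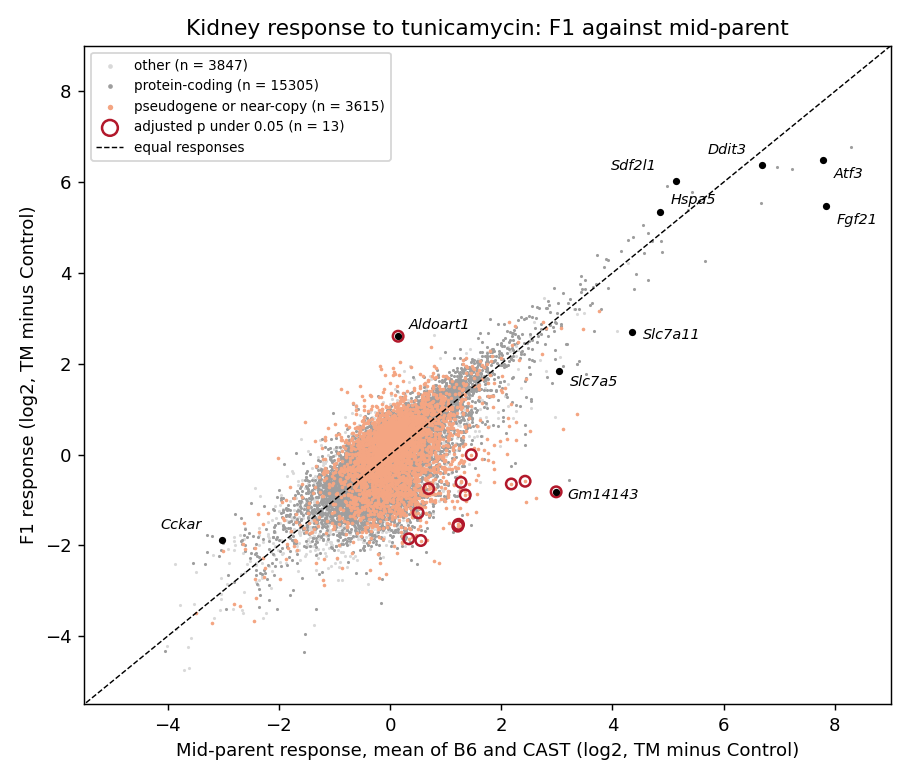
Response to TM in F1 kidneys (vertical axis, TM minus Control in log2) against the mid-parent response (horizontal axis, same unit), 1 point per gene. The points follow the line of equal responses, and the 13 ringed genes, which passed the adjusted p, are 1 above it (Aldoart1) and 12 below it.

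Only 13 of the 22767 genes differed between F1 and mid-parent at an adjusted p below 0.05 and 1.5-fold. A single gene was higher in F1 (0.00439% of genes tested) and 12 were lower (0.0527%). Without the adjustment, 1236 genes (5.43%) were higher and 585 (2.57%) lower at p below 0.05, and the median difference over all genes was 0.02 with a median standard error of 0.35. Against single parents, 1 gene (0.00439%) was called higher and 4 (0.0176%) lower in F1 than in B6, and 1 (0.00439%) higher and 6 (0.0264%) lower in F1 than in CAST. These contrasts share the F1 samples with the mid-parent contrast.

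All 13 genes are single-exon copies of multi-exon protein-coding genes. Of these, 12 are annotated as processed pseudogenes, which arise when a spliced mRNA is copied back into the genome, and Aldoart1 is a retrogene of the glycolytic enzyme gene Aldoa with a protein-coding annotation. They match 12 distinct source genes at 85.1% to 96.0% identity over 73.4% to 100% of their length. The copies and sources were matched after the calls had been seen, and the pseudogenes lie outside the rule by which other genes were chosen for naming.

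Such copies differ from the mature mRNA of the source by scattered bases and, like it, lack the introns of the source gene. As examples, 100-base stretches of 3 copies were aligned with their source transcripts in GENCODE, on GRCm38. They are centred on an exon junction of the source, with capitals at the bases that differ. Gm17809 and Gm5322 are among the 13 genes, and Calr-ps is not (limma adjusted p = 0.0867). No reads were aligned here, and how reads were assigned was not tested. Gm17809 (chr16:55884272-55884371, minus strand) is set against exons 2 and 3 of Chuk (chr19:44103658-44103707 and chr19:44101802-44101851, minus strand), which encodes the kinase IKK-alpha, with 9 differing bases. Calr-ps (chr2:140956140-140956239, minus strand) is set against exons 6 and 7 of Calr (chr8:84844378-84844427 and chr8:84844159-84844208, minus strand), which encodes the ER lectin chaperone calreticulin, with 6 differing bases. Gm5322 (chr7:18038602-18038701, plus strand) is set against exons 7 and 8 of Eif5 (chr12:111542261-111542310 and chr12:111542680-111542729, plus strand), a translation initiation factor, with 4 differing bases.
Gm17809: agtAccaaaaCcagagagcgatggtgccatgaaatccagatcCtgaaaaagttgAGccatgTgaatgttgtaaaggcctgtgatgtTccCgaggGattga
Chuk: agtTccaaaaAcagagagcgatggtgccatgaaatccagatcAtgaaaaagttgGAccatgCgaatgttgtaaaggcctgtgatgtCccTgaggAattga
Calr-ps: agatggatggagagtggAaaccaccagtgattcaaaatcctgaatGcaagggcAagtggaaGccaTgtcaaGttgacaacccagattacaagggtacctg
Calr: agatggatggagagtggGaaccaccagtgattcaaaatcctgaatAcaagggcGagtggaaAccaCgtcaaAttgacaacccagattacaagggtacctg
Gm5322: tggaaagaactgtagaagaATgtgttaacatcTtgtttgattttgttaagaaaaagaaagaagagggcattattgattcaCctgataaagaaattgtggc
Eif5: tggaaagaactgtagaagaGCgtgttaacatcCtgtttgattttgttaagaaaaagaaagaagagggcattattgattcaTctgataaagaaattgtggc
Of all 50-base windows of these copies, the length of 1 read of a pair, 3.57% in Gm17809, 2.29% in Calr-ps and 3.54% in Gm5322 were identical to the source transcript. Among other called copies the share was 2.55% in Gm8522, 3.25% in Gm14143, 9.05% in Gm18899, 9.62% in Gm16074 and 13.8% in Gm4939. Over 2330 copies of at least 90% identity and 80% coverage with a tested source gene, the median was 28.9%.

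Gm17809 had normalized counts of 6.85, 8 and 4.83 in F1 TM kidneys, against 10.4, 35.2 and 23.5 in F1 Control kidneys. It had 1332, 1033 and 1128 in B6 TM and 567, 518 and 579 in B6 Control kidneys, and 1323, 1040 and 966 in CAST TM and 538, 390 and 343 in CAST Control kidneys. Its level fell with TM in F1 and rose in both parents, and every F1 value was below every parental one, although levels are not on 1 scale across tables. The F1 minus mid-parent difference was -2.77 ± 0.36 (SE, 3 samples per group; limma adjusted p = 0.0025). Its source Chuk had 5658, 5136 and 5591 in F1 TM, against 1409, 1977 and 1916 in F1 Control kidneys, and its response of 1.64 in F1 and 1.24 in the mid-parent differed by 0.41 (adjusted p = 0.639).

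Gm14143, a copy of the translation repressor gene Eif4ebp1, had 0, 1.78 and 2.42 in F1 TM kidneys, against 5.20, 2.29 and 1.56 in F1 Control kidneys. It had 269, 211 and 260 in B6 TM and 16.1, 24.3 and 20.7 in B6 Control kidneys, and 327, 333 and 274 in CAST TM and 63.1, 62.9 and 46.1 in CAST Control kidneys. Its groups overlapped in F1 only, and the F1 values amount to a few reads per library. The difference was -3.81 ± 0.48 (adjusted p = 0.00198). Eif4ebp1 itself, a target of ATF4, had 864, 872 and 832 in F1 TM kidneys, against 91.0, 88.7 and 114 in F1 Control kidneys, and its responses of 3.13 in F1 and 2.99 in the mid-parent differed by 0.13 (adjusted p = 0.898).

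Aldoart1, the only gene higher in F1, had 8.57, 8 and 7.25 in F1 TM kidneys, against 0, 0.764 and 0.782 in F1 Control kidneys. It had 2017, 1428 and 1289 in B6 TM and 2060, 1281 and 1348 in B6 Control kidneys, and 1287, 1294 and 1219 in CAST TM and 946, 1000 and 1225 in CAST Control kidneys. It responded by 2.61 in F1 and 0.15 in the mid-parent, a difference of 2.46 ± 0.28 (adjusted p = 0.00108), and the F1 value depends on the pseudocount since F1 Control kidneys held at most 1 read each. Aldoa had 5483, 4188 and 3795 in F1 TM, against 1654, 3225 and 3077 in F1 Control kidneys, and its responses of 0.80 in F1 and 0.14 in the mid-parent differed by 0.67 (adjusted p = 0.62). With a mean of at least 5 required in each table, Aldoart1 was no longer tested.

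The other 10 called copies had a lower response in F1 than in the mid-parent, which is the difference that called them. Their sources encode the mitochondrial serine hydroxymethyltransferase Shmt2 (copy Gm15544), the purine synthesis enzyme Atic (Gm15550), the chaperonin subunit Cct4 (Gm15495), the RNA-binding protein Pum3 (Gm8522), the nucleolar protein Nol8 (Gm11952), the ER oxidoreductase Pdia6 (Gm6655), Eif5 (Gm5322 and Gm18899), the ubiquitin ligase Rnf4 (Gm16074) and the membrane-remodelling ATPase Vps4b (Gm4939). Differences ran from -3.02 for Gm6655 to -1.45 for Gm4939. In Gm5322 no F1 TM library had a read, and the F1 Control kidneys had 2.6, 0.764 and 0, so that no fold is given for F1.

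**Figure D2:**
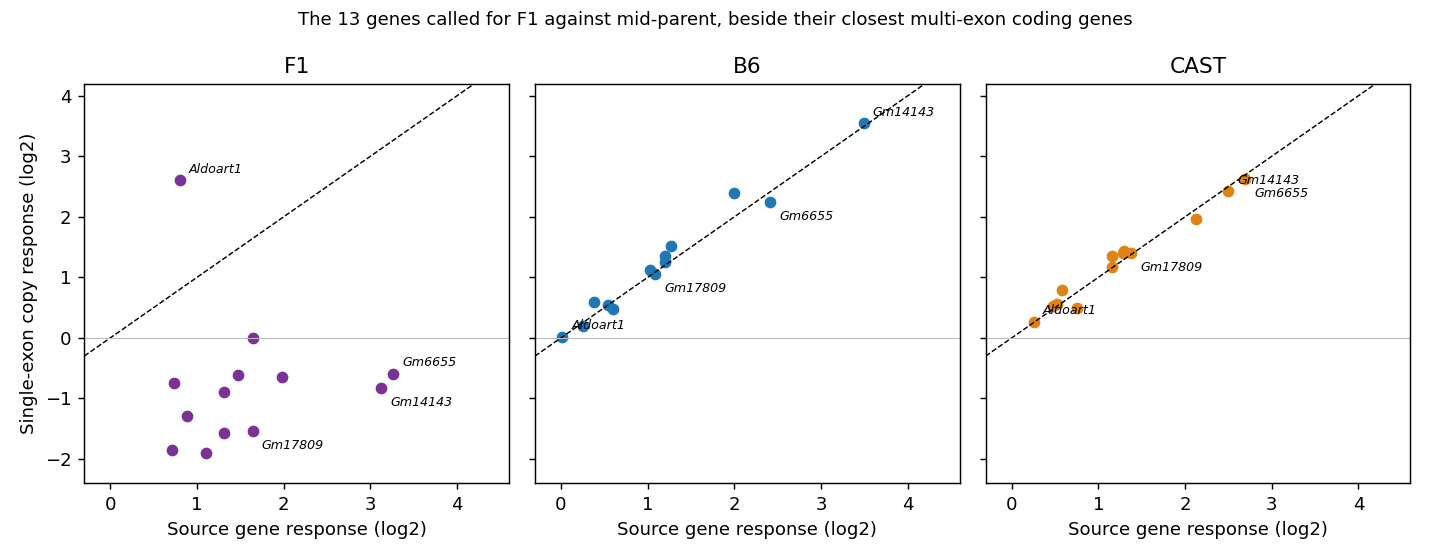
Response to TM of the 13 copies (vertical axis, log2) against that of their source genes (horizontal axis, log2) in F1, B6 and CAST kidneys. In B6 and CAST the points lie along the line of equality, and in F1 the 12 pseudogenes lie at or below 0 whereas their sources lie above it.

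In the parents the 12 pseudogenes and their sources had nearly the same response. Mid-parent responses ran from 0.34 to 2.99 in the pseudogenes and from 0.48 to 2.99 in their sources, with no gap above 0.21 within a pair. In F1 kidneys, responses ran from -1.89 to -0.00 in the pseudogenes, whereas those of the sources ran from 0.71 to 3.26. No source gene differed from the mid-parent, with differences from -0.08 to 0.71 and a smallest adjusted p of 0.62. Of the 13 genes, 7 had an F1 mean below 5, and the F1 means ran from 0.561 to 18.1, against parental means from 60.4 to 1366. The choice of these genes used the F1 and mid-parent responses, so the ranges are a description.

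The level of copies relative to their sources was measured within each library, which needs no common scale, over the 2330 pairs. The median log2 ratio of copy to source ran from -4.70 to -4.19 in F1 libraries, from -2.09 to -1.93 in B6 libraries and from -1.75 to -1.66 in CAST libraries. The 6 F1 libraries were below all 12 parental ones. The mean was below 5 for 524 of these copies in F1, and for 64 in the parents. Over all pairs the median copy response was 0.33 in F1, against 0.13 in B6 and 0.07 in CAST, with source medians of 0.43, 0.17 and 0.13 in F1, B6 and CAST. The F1 response was above the mid-parent for 1539 of 2344 near-copies, against 11800 of all 22767 genes tested. Responses of copies and sources correlated across pairs at 0.462 in F1, against 0.794 in B6 and 0.761 in CAST. For the 163 pairs whose source rose at least 2-fold in the mid-parent, the median copy response was 0.82 in F1, against 1.18 in B6 and 1.32 in CAST, while the sources had medians of 1.4, 1.34 and 1.26 in F1, B6 and CAST.

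Left out in turn, single libraries changed which copies were called, but Aldoart1, Gm14143, Gm17809, Gm15544 and Gm15550 were called each time. The other 8 lost the call on leaving out any of 8 to 16 of the 18 libraries, parental ones included. Without F1 Control 1, 14 genes were called, 10 of the 13 among them, and 13 of the 14 were pseudogenes or near-copies. Gm6655, Gm18899 and Gm4939 were then not called (adjusted p from 0.0844 to 0.0947). Calr-ps, with an adjusted p of 0.0867 in all libraries, passed at 0.033. It had 0.857, 0.889 and 0.805 in F1 TM kidneys, against 0, 0.764 and 0.782 in F1 Control kidneys, 1 read or none in each library, but 1954 to 4216 in parental TM and 386 to 1291 in parental Control kidneys. When pseudogenes and near-copies were left out before testing, Aldoart1 alone was called. With a mean of at least 5 in each of the 3 tables, 4 genes were lower in F1 (Gm17809, Gm15550, Gm8522 and Gm15495) and none was higher.

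By limma as fitted, no other protein-coding gene passed the test against the mid-parent. With the replicate number as a block, Fgf21, Pycrl and Gchfr, a feedback regulator of GTP cyclohydrolase named here after its value was seen, also passed. With sample weights 20 protein-coding genes passed, Aldoart1 among them, and by DESeq2 18 did, without Aldoart1. Those with the smallest unadjusted p are described here as values that did not pass, 12 in each direction with a mean of at least 50, and Aldoart1 is among those higher in F1. F1 Control 1 had the lowest value of the 3 F1 Control kidneys for 12 of the 12 genes higher in F1, and the highest for 10 of the 12 lower ones. Over all protein-coding genes it was lowest in 55.8% and highest in 36.6%, over the 991 higher in F1 at unadjusted p below 0.05 it was lowest in 91.2%, and over the 270 lower ones it was highest in 88.5%. All 24 named differences kept their sign without it, with medians of 0.93 for the 12 higher genes (1.12 with it) and -0.94 for the 12 lower ones (-1.20 with it). What part the depth of this library has in these values was not tested.

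Fgf21, a secreted hormone of the stress and fasting response and a target of ATF4, had the smallest p among the lower genes. It had 495, 253 and 308 in F1 TM kidneys, against 10.4, 3.06 and 8.61 in F1 Control kidneys. In B6 it had 324, 204 and 233 in TM and 1.07, 0 and 0 in Control kidneys, and in CAST 849, 770 and 1207 in TM and 3.57, 0.874 and 3.76 in Control kidneys. TM and Control values lay far apart in all genotypes, and B6 Control kidneys were at or near 0. The response was 5.47 in F1, against 7.84 in the mid-parent, a difference of -2.37 (interval -3.47 to -1.27, adjusted p = 0.171). It depends on the pseudocount, being -1.41 with a pseudocount of 5. It passed without F1 Control 2 (limma adjusted p = 0.0347), with the replicate block (0.0131) and with sample weights (0.00136), and did not by edgeR (0.623).

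Atf3, a stress-induced transcription factor downstream of PERK, had 4075, 3707 and 3884 in F1 TM kidneys, against 44.2, 22.9 and 72.8 in F1 Control kidneys. It had 3594, 2502 and 3330 in B6 TM and 13.9, 14 and 10.8 in B6 Control kidneys, and 7295, 6880 and 7942 in CAST TM and 47.6, 36.7 and 20.7 in CAST Control kidneys. It rose in every genotype, by 6.5 in F1 and 7.78 in the mid-parent, and the difference of -1.28 did not pass (adjusted p = 0.563), but did by DESeq2 on the recovered reads (adjusted p = 0.0391), by limma without F1 Control 2 (adjusted p = 0.048) and with sample weights (adjusted p = 0.0151). Slc7a11, the cystine-glutamate exchanger, had 131, 117 and 141 in F1 TM kidneys, against 49.4, 11.5 and 11.7 in F1 Control kidneys, where F1 Control 1 stood apart. Its difference from the mid-parent was -1.65 with that library and -0.98 without it. Lox, which cross-links collagen, had a difference of -1.29, Clcf1, a cytokine of the IL-6 family, of -1.20, and Bach2, a transcriptional repressor, of -1.01 (adjusted p from 0.475 to 0.583).

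Of the genes with higher F1 values, Cckar, a receptor for cholecystokinin, had 185, 159 and 144 in F1 TM kidneys, against 502, 660 and 660 in F1 Control kidneys. It had 105, 185 and 163 in B6 TM and 1284, 1083 and 1237 in B6 Control kidneys, and 160, 186 and 128 in CAST TM and 1332, 1204 and 1280 in CAST Control kidneys. TM and Control values did not overlap in any genotype. Its response of -1.89 in F1 and -3.02 in the mid-parent differed by 1.13 (interval 0.62 to 1.64, adjusted p = 0.152).

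Acy3, a kidney aminoacylase that deacetylates mercapturic acids, had 11640, 8736 and 6747 in F1 TM kidneys, against 4057, 7520 and 8539 in F1 Control kidneys. It had 5381, 3529 and 5867 in B6 TM and 14030, 11140 and 11820 in B6 Control kidneys, and 6377, 6603 and 4782 in CAST TM and 8945, 9882 and 6556 in CAST Control kidneys. The F1 groups overlapped and the B6 groups did not. Its response was 0.47 in F1, against -0.93 in the mid-parent, with a difference of 1.4 that did not pass by limma (adjusted p = 0.399). The carboxylesterase genes Ces2b and Ces2h, neighbours in a cluster of related genes whose reads can be hard to tell apart, had differences of 1.20 and 1.25 (adjusted p = 0.352 and 0.42). Haao, of the kynurenine pathway, had a difference of 1.08, Notum, which inactivates Wnt proteins, of 1.70, the proline synthesis gene Pycrl of 1.06, the prenyltransferase subunit Rabggta of 1.10 and the coatomer subunit Cope of 0.83 (adjusted p from 0.251 to 0.395). Slc9a3r1 had a difference of 0.98 and Pih1d1 of 0.79 (limma adjusted p = 0.406 each). By DESeq2, Acy3, Haao, Cope and Slc9a3r1 (adjusted p = 0.0301 each) and Rabggta (0.0315) passed. With sample weights, Cckar (0.0306), Ces2b and Pycrl (0.0228 each), Cope (0.00844) and Slc9a3r1 (0.0271) did, and Pycrl also with the replicate block (0.0448).

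**Figure D3:**
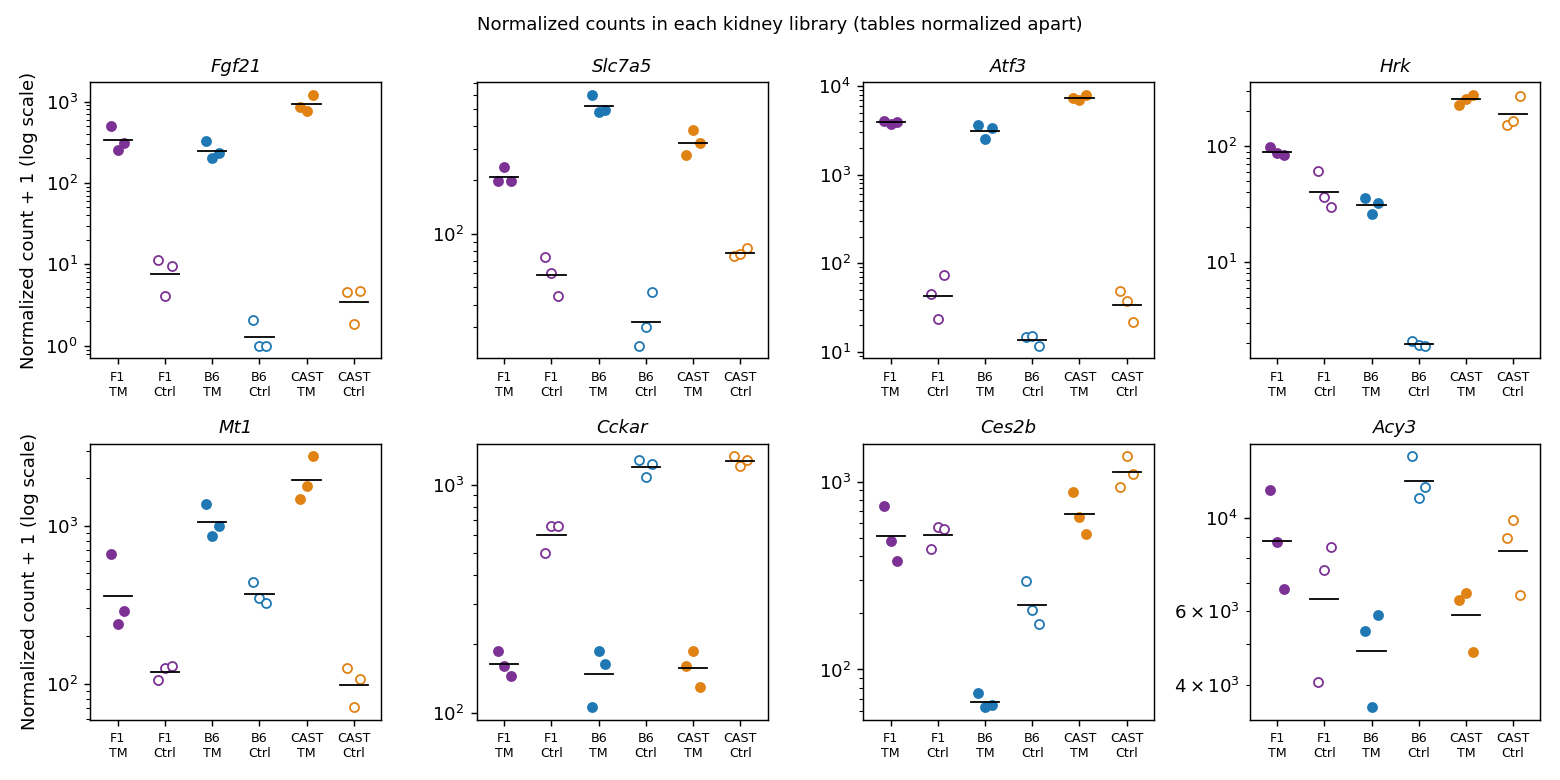
Normalized counts plus 1 (vertical axis, log scale) in each kidney library for 8 genes, with TM as filled and Control as open points and bars at the means on the log scale. Fgf21 and Atf3 rise and Cckar falls in all 3 genotypes, and Slc7a5 rises most in B6. Tables were normalized apart, so levels are comparable within a genotype only.

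The position of F1 between the parents can be read where the parents themselves differ. B6 and CAST responses differed for 20 genes by the same rule, 11 higher (0.0483%) and 9 lower (0.0395%) in B6. They were chosen on the parental difference, with the spread pooled over all 18 libraries, and Gm906, Gm9347 and Fam129a lost the call without single F1 libraries. The position of F1 is therefore given as a description, and its contrasts with B6 or CAST share the parental samples that chose the genes. The F1 response lay between the parental ones for 19 of the 20, against 540 of 731 genes (73.9%) with an unadjusted p below 0.05 for B6 against CAST and 23.6% of all genes tested. None of the 20 was among the 13 genes that differed from the mid-parent, and F1 minus mid-parent had an unadjusted p below 0.05 for 8 of them, against 1821 of all 22767 genes. With the replicate number as a block, 54 genes were called for B6 against CAST, 23 higher and 31 lower in B6, and these held all 20. With single libraries left out, Hrk, Fibin and Zc3hav1 kept the call each time, Slc7a5 lost it without any of 8 libraries, Mt1 without any of 5, and the other 15 without any of 2 to 15.

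The dominance ratio, the F1 minus mid-parent difference divided by 0.5 times the B6 minus CAST difference, is 1 where F1 responds like B6, -1 where it responds like CAST and 0 at the mid-parent. Its median over the 20 genes was -0.12. It lay within 0.5 of the mid-parent for 13 genes, above 0.5 for 3 and below -0.5 for 4. For 3 genes F1 differed from a single parent at an adjusted p below 0.05, and for the other 17 it passed against neither.

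Hrk, a BH3-only activator of apoptosis, showed the largest separation by p. It had 97.7, 87.2 and 82.9 in F1 TM kidneys, against 59.8, 35.9 and 28.9 in F1 Control kidneys. It had 34.9, 25.1 and 31.4 in B6 TM and 1.07, 0.935 and 0.899 in B6 Control kidneys, and 228, 258 and 277 in CAST TM and 151, 166 and 272 in CAST Control kidneys. The B6 Control kidneys were at about 1 read each, and the CAST groups overlapped. The responses were 1.15 in F1, 3.98 in B6 and 0.42 in CAST. B6 exceeded CAST by 3.57 ± 0.38 (adjusted p = 0.000345), a difference that was 2.15 with a pseudocount of 5 and 4.61 by DESeq2, called in both. F1 was below B6 (adjusted p = 0.0037), and F1 did not pass against CAST (adjusted p = 0.901).

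Slc7a5, the light subunit of the large neutral amino acid transporter and a target of ATF4, had 195, 235 and 196 in F1 TM kidneys, against 72.8, 59.6 and 43.8 in F1 Control kidneys. It had 599, 480 and 493 in B6 TM and 22.5, 29.0 and 45.8 in B6 Control kidneys, and 275, 379 and 321 in CAST TM and 73.8, 76.0 and 81.8 in CAST Control kidneys. It rose in all genotypes, most in B6. Its response of 1.83 in F1 was below the 4.03 of B6 (adjusted p = 0.0116) and did not pass against the 2.05 of CAST (adjusted p = 0.943), so that F1 was the lowest of the 3 and the only one of the 20 outside the parental range. Its difference from the mid-parent was -1.20 (interval -1.79 to -0.61, adjusted p = 0.251).

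Mt1, a metal-binding metallothionein, stood on the side of B6. It had 666, 239 and 287 in F1 TM kidneys, against 104, 125 and 128 in F1 Control kidneys. It had 1376, 864 and 996 in B6 TM and 442, 348 and 325 in B6 Control kidneys, and 1477, 1789 and 2761 in CAST TM and 125, 69.9 and 105 in CAST Control kidneys. The groups were apart in all genotypes, most widely in CAST. F1 responded by 1.59 and B6 by 1.52, against 4.3 in CAST, and F1 was below CAST (adjusted p = 0.0379), with a difference of -1.32 from the mid-parent that did not pass (adjusted p = 0.563), but did with sample weights (0.00127).

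Other genes of the 20 were closer to one parent without a passing test. Nat9, an acetyltransferase gene, responded by 1.24 in F1, -0.12 in B6 and 1.26 in CAST, with an adjusted p of 0.0557 for F1 against B6. Its values were 363, 279 and 264 in F1 TM, against 112, 128 and 141 in F1 Control kidneys, and 192 to 202 in B6 TM against 208 to 214 in B6 Control kidneys. Phgdh, the first enzyme of serine synthesis and an ATF4 target, responded by 3.24 in F1, 3.46 in B6 and 1.82 in CAST, and its single-exon copy Gm9347, 97.4% identical, is also among the 20. Zc3hav1, an antiviral zinc-finger protein, responded by 2.24 in F1, 0.68 in B6 and 2.79 in CAST. Cyp26b1, which degrades retinoic acid, responded by -0.21 in F1, 1.78 in B6 and -0.53 in CAST.

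Bcat1, the cytosolic branched-chain aminotransferase, moved in opposite directions in the parents. It had 320, 309 and 401 in B6 TM and 543, 649 and 900 in B6 Control kidneys, but 129, 192 and 97.6 in CAST TM and 60.8, 35.8 and 32.0 in CAST Control kidneys. In F1 it had 136, 101.4 and 96.6 in TM and 127, 62.7 and 78.2 in Control kidneys, where the groups overlapped. Its F1 response of 0.36 lay at the mid-parent of 0.34, between -1.0 in B6 and 1.68 in CAST. Btg2, an antiproliferative gene, was also near the mid-parent, with 2.75 in F1, 3.55 in B6 and 2.04 in CAST, as was Alcam, a cell adhesion molecule, with 1.12 in F1, 0.12 in B6 and 1.68 in CAST.

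The remaining genes were Fibin, a secreted protein, with 2.10 in F1, 3.52 in B6 and 1.49 in CAST, Baat, which conjugates bile acids, with 0.69 in F1, 2.33 in B6 and 0.05 in CAST, and Fam129a, which is induced by ER stress, with 2.52 in F1, 2.85 in B6 and 1.57 in CAST. Pqlc1 had 1.71 in F1, 2.26 in B6 and 0.62 in CAST, Dleu7 0.28 in F1, 0.81 in B6 and -2.31 in CAST, the matricellular gene Ccn4 0.20 in F1, -1.35 in B6 and 0.76 in CAST, and the long noncoding RNA BC049987 2.06 in F1, 0.85 in B6 and 2.90 in CAST. Gm906 and Gm47951, both on chromosome 13, fell by 2.75 and 2.09 in F1 and by 4.24 and 3.94 in B6, while CAST kidneys held at most 10.8 normalized counts of Gm47951 and 3.57 of Gm906.

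**Figure D4:**
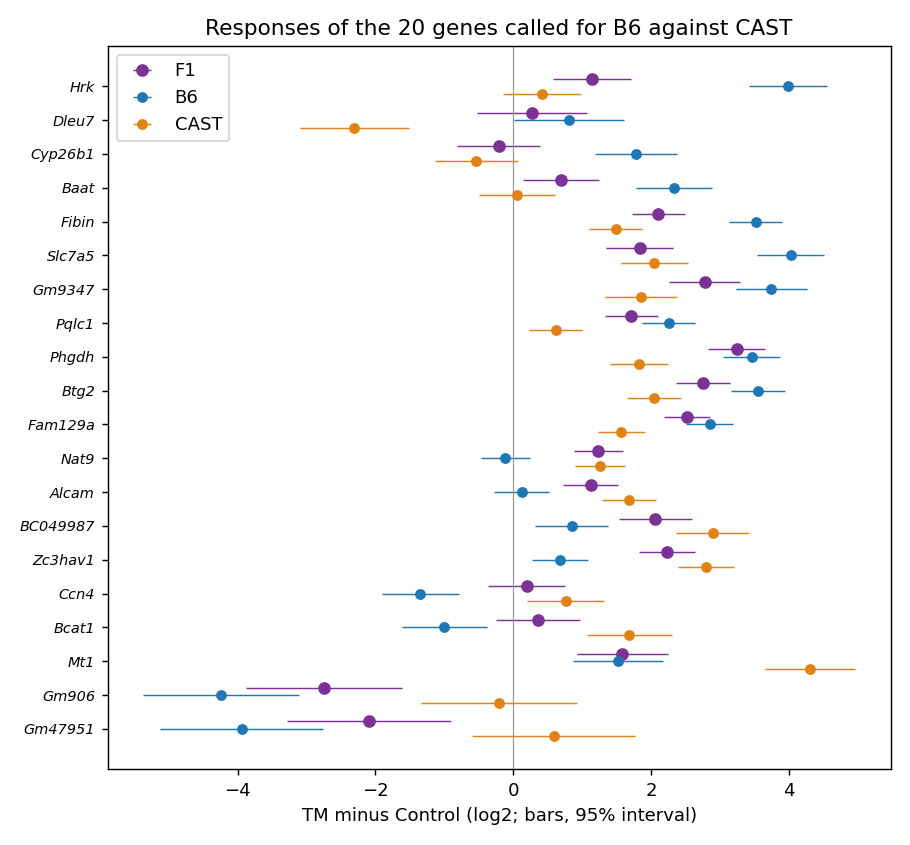
Response to TM (horizontal axis, TM minus Control in log2, with 95% intervals) in F1, B6 and CAST for the 20 genes whose response differed between B6 and CAST. The F1 point lies between the parental points in 19 rows, and Slc7a5 is the exception.

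The gene lists of the unfolded protein response rose in F1 kidneys as they did in the parents. These lists were not chosen blind to the data, and by limma as fitted no member of any list was called for F1 against mid-parent. List members that passed by DESeq2 included Cib1, Atf3, Ces1f, Dnaja1 and Sec13 (adjusted p from 0.0301 to 0.0496). Over all genes tested, 12% rose in F1, 8.17% in B6 and 8.38% in CAST, and 6.01% fell in F1, 5.88% in B6 and 5.17% in CAST. Of 23 ER chaperones and folding enzymes, 21 rose in F1, 18 in B6 and 20 in CAST, with median responses of 2.88, 1.94 and 2.22. Of 30 targets of PERK, ATF4 and CHOP, 28 rose in F1, 29 in B6 and 24 in CAST, with medians of 3.13, 3.42 and 2.97. Of 20 genes of ER-associated degradation, 16 rose in F1, 14 in B6 and 16 in CAST. No member of these 3 lists fell in any genotype.

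Among ER chaperones, 20 of 23 members had an F1 minus mid-parent difference above 0, against 8667 of 15305 protein-coding genes. The median difference was 0.46 for ER chaperones, against 0.02 for all genes tested and 0.07 for protein-coding genes. Without F1 Control 1 it was 0.30, against 0.03 for protein-coding genes, and all 23 members kept their sign. Among them were Sdf2l1, a protein of the ER lumen, with a difference of 0.88, and the disulfide isomerase P4hb and Calr, with 0.83 each. P4hb had 19760, 16110 and 16150 in F1 TM kidneys, against 2088, 3895 and 3644 in F1 Control kidneys, so that F1 Control 1 was the lowest. The median was 0.42 for ER to Golgi transport (0.22 without F1 Control 1), 0.39 for N-glycan assembly (0.12), 0.32 for ER-associated degradation (0.14) and 0.31 for ER translocation (0.27). Differences in these lists reached 0.98 for Sec61b, a subunit of the translocation channel, 0.82 for Sec13 of the COPII coat and 0.77 for Ost4 of the oligosaccharyltransferase.

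The targets of PERK, ATF4 and CHOP had a median of 0.08 with a wide spread, from -2.37 for Fgf21 to 0.74, and 16 members above and 14 below 0. Trib3, a pseudokinase that restrains ATF4 and CHOP, responded by 6.28 in F1 and 7.22 in the mid-parent, and had 31.2, 12.2 and 45.4 in F1 Control kidneys, against 9.36 to 14.4 in B6 Control and 20.7 to 51.6 in CAST Control kidneys. The sensors and their transcription factors had a median of -0.06. Their lowest member, Bhlha15, a target of XBP1 that drives secretory cell maturation, had 41.6, 4.59 and 10.9 in F1 Control kidneys, with F1 Control 1 the highest, and Derl3 of ER-associated degradation had a difference of -1.13. None of these differences passed as fitted, and Derl3 passed with sample weights (limma adjusted p = 0.0187).

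Lists of epithelial metabolism differed in how far they rested on F1 Control 1. The median of fatty acid oxidation and ketogenesis was 0.27 with it and -0.09 without it, that of loop and distal tubule markers 0.36 with it and 0.04 without it, and that of collecting duct markers 0.21 with it and -0.26 without it. All 34 nuclear-encoded subunits of the respiratory chain had a difference above 0, against 8667 of 15305 protein-coding genes. The 34 differences ran from 0.20 to 0.72 with a median of 0.55. Of the 34 subunits, 16 had an unadjusted p below 0.05, against 5.43% of all genes higher at that p. Without F1 Control 1 the 34 stayed above 0 with a median of 0.43, and 5 had such a p, against 3.05% of all genes. Ndufv1 of complex I had 2174, 1749 and 1547 in F1 TM kidneys, against 741, 1466 and 1386 in F1 Control kidneys, where F1 Control 1 was the lowest. The 24 proximal tubule markers had a median of 0.66 with all libraries and 0.15 without F1 Control 1, which was the lowest F1 Control kidney for all 24. The organic anion transporter Slc22a6 had 5899, 6077 and 4230 in F1 TM kidneys, against 1753, 4388 and 4759 in F1 Control kidneys. Summed over the list, these markers had normalized counts from 263300 to 330000 in F1 TM, against 229700 to 362300 in F1 Control kidneys, from 303100 to 389500 in B6 TM, against 549100 to 603400 in B6 Control kidneys, and from 290200 to 347700 in CAST TM, against 424900 to 541700 in CAST Control kidneys. Taken gene by gene, the median response of the 24 markers was 0.28 in F1, -0.52 in B6 and 0.009 in CAST. The fall of the sum in CAST was therefore not shared by the typical marker. What part these changes have in the other differences was not tested.

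**Figure D5:**
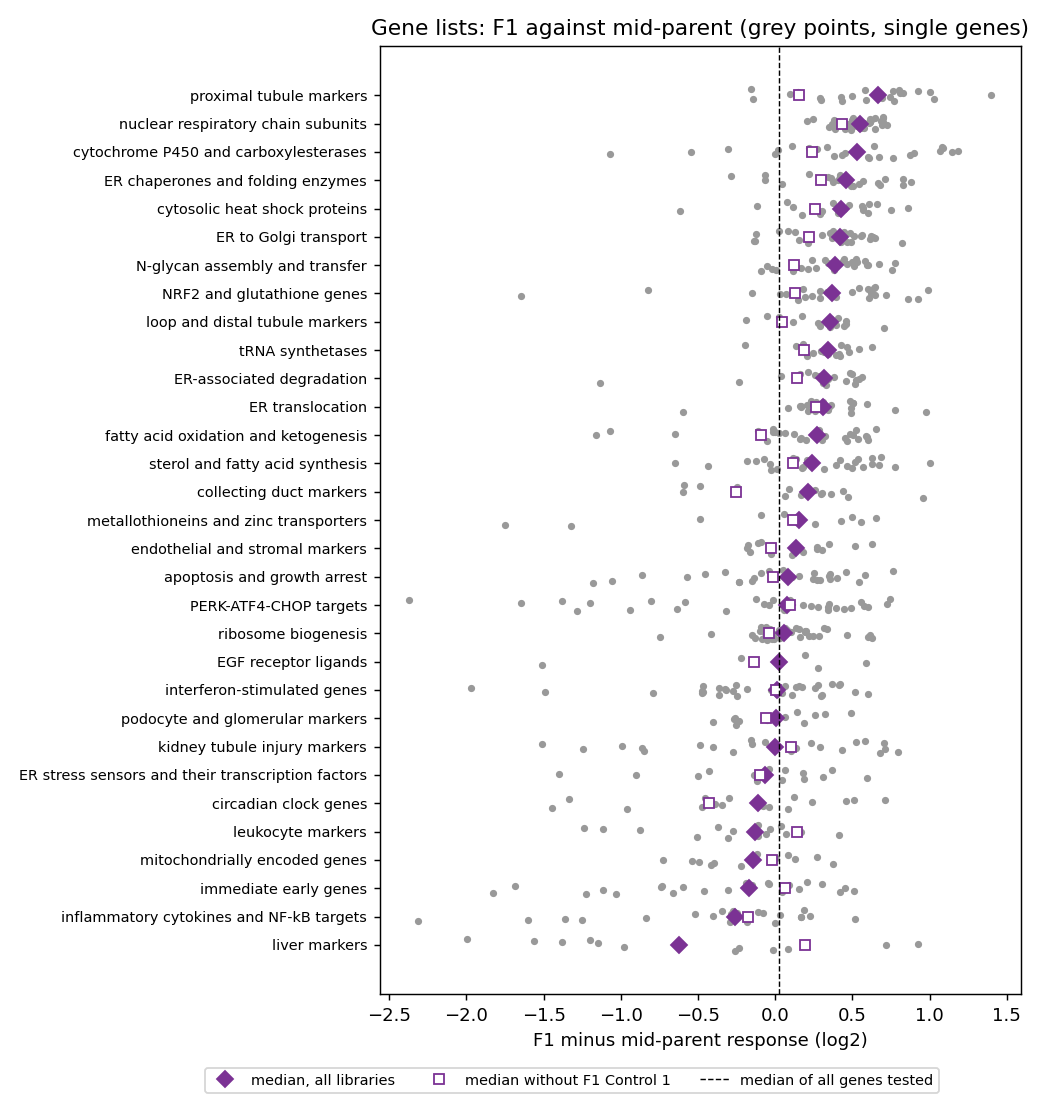
F1 minus mid-parent response (horizontal axis, log2) for each tested gene of the gene lists (points), with the list median from all libraries (diamonds) and without F1 Control 1 (open squares). Medians run from 0.66 for proximal tubule markers, 0.15 without F1 Control 1, to -0.62 for liver markers, 0.19 without it.

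Cytochrome P450 and carboxylesterase genes had a median of 0.53 (0.24 without F1 Control 1). Ces1f had 3105, 2064 and 1668 in F1 TM kidneys, against 2871, 5241 and 4994 in F1 Control kidneys. Its response was -0.94 in F1, against -2.02 in the mid-parent. The difference did not pass by limma as fitted, but did by DESeq2 (1.09, adjusted p = 0.0391). The lowest list median was that of the liver markers, -0.62 with all libraries and 0.19 without F1 Control 1. Cytokines and targets of NF-kB had a median of -0.26, and the 33 interferon-stimulated genes one of 0.01. Noncoding and other genes outside the protein-coding and pseudogene classes had a median of -0.26, over 3847 genes. Olfactory and vomeronasal receptor genes, 45 of which passed the filter, had a median of -0.40 with all libraries and -0.12 without F1 Control 1, the library with the most reads on them.

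Male F1 mice carry the X chromosome and the mitochondria of their B6 mothers, so for these genes F1 and B6 share their alleles. Over 512 X-linked genes that were not copies, the F1 response was closer to B6 in 43.9%, against 43.6% of 18578 autosomal ones. For the 14 X-linked genes with an unadjusted p below 0.05 for B6 against CAST, F1 lay between the parents for all 14 and was closer to B6 for 9, while of 661 such autosomal genes 40.4% were closer to B6. The 13 mitochondrially encoded protein genes had a median F1 minus mid-parent difference of -0.14 (-0.02 without F1 Control 1), and none was called. These counts are descriptions over genes, and no test was made of them.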

How the data were processed

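Total RNA, depleted of ribosomal RNA, was sequenced as stranded paired reads by the authors. They aligned parental reads to strain-specific genomes with Bowtie2 2.2.9 and F1 reads with STAR 2.6 to a genome masked at CAST variants, and used SAMtools 1.12. Each deposited value (signal) is a gene's read count scaled by the authors with DESeq2 1.28.1, separately for each genotype and tissue. The sources used here do not give the counting tool. All values were whole multiples of 1 read within 0.01 (100%), and the reads so recovered gave the depth.

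Values were analysed as log2(value + 1) with limma 3.58.1 in R 4.3.3, with a mean-variance trend and 6 group means, where the 18 samples averaged 5 or more. Benjamini-Hochberg adjustment ran over all 22767 genes, and genes were called at an adjusted p of 0.05 and 1.5-fold. The fit was run on simulated counts in which each gene had the same mean in all groups, except for a set changed in F1 TM. The simulation held no genes with few F1 reads and many parental reads, so it does not bear on the called copies. Since tables were normalized apart, only responses were compared between genotypes. Samples were grouped by their labels, and whether replicate numbers mark shared litters or days is not given, so p-values measure the spread between these mice. Deviations from group means correlated between same-numbered TM and Control samples at 0.49, 0.24 and 0.25 in B6. The values were 0.47, 0.20 and 0.32 in CAST and 0.39, 0.02 and 0.36 in F1. In B6 and CAST each TM sample correlated best with its own number. In F1, TM 2 correlated better with Control 3 (0.05) and TM 3 with Control 2 (0.38), by small margins. TM and Control samples are different mice, no label gives a pairing, and the main fit held no replicate block.

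Members and gene lists were chosen with earlier results of these data known. Named genes were, with a mean of at least 50 and a symbol, the 12 of smallest p in each direction against the mid-parent where too few were called, the 12 of smallest adjusted p between B6 and CAST, genes the study discusses for kidney, and up to 4 per list with the largest difference. Copies, their sources and other genes outside this rule were chosen after their values were seen. Copies were found by alignment of GENCODE transcripts on GRCm38. Alternatives were other pseudocounts, filters and scalings, sample weights, DESeq2 1.42.0 and edgeR 4.0.16 on recovered reads, the replicate number as a block, and each library left out. After seeing the data, 3 were added: leaving out pseudogenes and near-copies, a mean of at least 5 in each table, and copies without F1 Control 1.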

Additional observations from a re-analysis of the deposited data

Results flagged for a closer look

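Each gene below had a TM response that differed between genotypes by limma's test of the difference itself, with a change of at least 1.5-fold. No group held 4 or more samples, so no single sample was tested as an outlier.

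For F1 against mid-parent, the log2 difference was 2.46 for Aldoart1, the only gene higher in F1. Lower in F1 were the 12 pseudogenes, with differences of -3.81 for Gm14143, -3.02 for Gm6655, -2.83 for Gm11952, -2.80 for Gm18899, -2.77 for Gm17809, -2.45 for Gm15544, -2.24 for Gm5322, -2.20 for Gm15550, -1.89 for Gm8522, -1.79 for Gm15495, -1.46 for Gm16074 and -1.45 for Gm4939. All are single-exon copies with few reads in F1 libraries, and F1 reads alone were aligned to a masked genome, so genotype and alignment cannot be told apart.

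For B6 against CAST, genes with the higher response in B6 had log2 differences of 3.57 for Hrk, 3.12 for Dleu7, 2.32 for Cyp26b1, 2.28 for Baat, 2.04 for Fibin, 1.98 for Slc7a5, 1.89 for Gm9347, 1.64 for Phgdh, 1.64 for Pqlc1, 1.51 for Btg2 and 1.28 for Fam129a. Those with the lower response in B6 had differences of -4.53 for Gm47951, -4.03 for Gm906, -2.78 for Mt1, -2.68 for Bcat1, -2.11 for Ccn4, -2.11 for Zc3hav1, -2.05 for BC049987, -1.56 for Alcam and -1.37 for Nat9. In CAST, Gm906 was at or near 0 in TM and Control kidneys alike, so its difference rests on B6.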

How the results depend on the processing

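The numbers of genes called moved with most choices, and none of 56 results on single named genes reversed its sign under the alternatives run. Without F1 Control 1, however, 11128 of 15305 protein-coding genes and 18 of 24 proximal tubule markers kept their sign, and 11 of 31 list medians changed theirs, liver markers to 0.19, immediate early genes to 0.07, fatty acid oxidation to -0.09 and collecting duct markers to -0.26 among them. Genes higher and lower in F1 than the mid-parent, 1 and 12 as reported, were 0 and 20 with a pseudocount of 5, 2 higher with a pseudocount of 0.5 and with limma without its trend, 7 lower with no filter and with the median response set to 0, 30 and 65 with sample weights, 0 and 1 by edgeR, 17 and 1 by DESeq2, 10 and 26 with the replicate block (all 13 among them), 0 lower without pseudogenes and near-copies, and 0 and 4 with a mean of at least 5 in each table. No numbering was used as pairing in the fit as reported. F1 TM 2 correlated best with Control 3 and F1 TM 3 with Control 2, by small margins. The gene called by edgeR was Gm17809, and 1721 genes had an unadjusted p below 0.05. All 18 genes called by DESeq2 were protein-coding, Atf3 the only lower one, and 1991 genes had such a p. DESeq2 gave an adjusted p for 3783 genes only. The 12 pseudogenes were not among these, so DESeq2 could not call them, and neither were Fgf21, Cckar, Ces2b, Pycrl and Slc7a11. Genes higher and lower in B6 than CAST, 11 and 9 as reported, were 79 and 88 with sample weights, 39 and 41 by DESeq2, 23 and 31 with the block, 3 and 2 without the trend, and 18 lower with a pseudocount of 5. With 1 library left out, genes higher in F1 ranged from 1 to 3 and lower from 4 to 18, genes higher in B6 from 2 to 20 and lower from 1 to 18, genes with F1 between the parents from 18 to 19, and the slope from 0.865 to 0.918. The slope was 0.870 with sample weights, 0.844 by edgeR and 0.839 by DESeq2. The causes were not tested. The weight of F1 Control 1 was 0.101, the lowest of the 18.

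Of the alternative values of 56 results on single genes, 1354 kept their side of the threshold, 311 no longer passed and 18 passed anew, and of the values of list medians 1016 stayed within the spread and 7 moved. With TMM scaling the median F1 minus mid-parent difference of all genes was 0.09, against 0.02 as reported. The precision is limited by 3 mice per group and by the depth of F1 Control 1.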
